A study of Arabidopsis thaliana with 5 samples.

Results

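Extensins and related hydroxyproline-rich glycoproteins are secreted proteins of the plant cell wall. Their prolines are hydroxylated by prolyl 4-hydroxylases, arabinosyltransferases add arabinose chains to the hydroxyprolines, and peroxidases can cross-link extensins through tyrosines into an insoluble network. In roots, several extensins are known from root hairs, whose walls they help to build. The 4 genes described here are AT3G54580 and AT1G23720 of the extensin family, and AT4G38080 and AT5G09480 of the hydroxyproline-rich glycoprotein family. They were chosen by gene identifier from 13286 genes that had a single-gene probe set matched to RefSeq. The choice was made with their difference between the groups known, so their levels are described and not tested.

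All samples were roots of Arabidopsis thaliana, ecotype Columbia, from seedlings grown for 5 days on medium at pH 5.7 and then kept for 24 h at pH 4.6. In 3 samples the root cells had been freed from their walls (protoplasted) and passed through a fluorescence-activated cell sorter, and RNA of about 50000 cells was labelled. For the other 2 samples, 1 µg of total RNA from intact roots was labelled. No agent, genotype or reporter that differs between the groups is named in the labels, no gate is given for the sorter, and both groups had the low pH treatment, so no untreated root enters the comparison. The comparison asks how protoplasting and sorting change the transcript profile of the root. The labelled input differed with the groups as well. Its part was not tested and cannot be told apart here from that of protoplasting and sorting.

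Each value is a MAS5 signal, a linear brightness of 1 probe set on an Affymetrix ATH1 array, scaled to the same target on every array. Signals of different probe sets are not on a common scale of RNA amount, so each gene is compared only with itself across samples. The number of arrays limits the precision. Nothing in the labels says that the replicates are separate cultures, and the p-values may therefore reflect technical spread alone. A mean signal of 43.3, the bound below which the dimmest 40% of probe sets lay, is used below as a mark for dim signals. Because RNA of many cells was pooled in each sample, fewer cells of a type and less RNA per cell cannot be told apart.

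The facts of the arrays given here apply to every gene below, and some but not all of them moved with the groups. The ratio of the 3′ to the 5′ probe set of the GAPDH control was 5.22 to 9.18 in sorted protoplasts and 0.788 to 0.969 in whole roots. Of the 5 listed markers of green shoot tissue, RCA and LHCB4.1 had a single-gene probe set. RCA had 38.3, 51.1 and 47.1 in sorted protoplasts and 393 and 517 in whole roots. LHCB4.1 had 56.1, 60.8 and 45.5 against 409 and 454. Of the 8 root hair markers, EXPA7 and EXPA18 had one, and their summed signal was 46.1 to 130 in sorted protoplasts and 128 to 140 in whole roots. AT1G62510, a cortex marker, ranged from 30.0 to 38.5 against 67.4 to 85.2 (limma adjusted p = 0.00842). AT1G65570, a root cap marker, ranged from 78.3 to 242 against 68.3 to 86.3. Its groups overlapped, and it did not pass (limma adjusted p = 0.134). No marker listed for non-hair epidermis, endodermis, stele, xylem or phloem had a single-gene probe set, and no named marker was at 0. The part of RNA quality and of these cell types in the differences below was not tested.

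Among the extensins, AT3G54580 had signals of 3.72, 37.4 and 13.2 in sorted replicates 1, 2 and 3, and of 400 and 369 in whole-root replicates 1 and 2. The groups did not overlap, and every sorted value lay under the bound. Group means were 18.1 ± 17.4 (SD, n = 3) and 384 ± 21.5 (SD, n = 2). The log2 difference, sorted minus whole root, was -4.97 (SE 0.806), and it spread from -6.75 to -3.30 over the 6 pairings of one sample from each group. The highest sorted sample stood 10.0-fold above the lowest, and the difference was -4.11 without sorted replicate 1 and -5.78 without sorted replicate 2. Set against the bound in place of the dim sorted values, the whole-root mean was 8.87-fold higher.

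The extensin gene AT1G23720 gave 51.8, 76.2 and 50.8 in the sorted samples and 890 and 761 in the whole roots. It was the only one of the 4 genes whose sorted signals all lay above the bound, which is not a detection limit. Means were 59.6 ± 14.4 (SD, n = 3) against 825 ± 90.8 (SD, n = 2), a log2 difference of -3.81 (SE 0.229). The lowest whole root was 9.99-fold above the highest sorted sample. Its probe set carries the suffix _x_at, by which the maker marks probe sets with probes that can also match other transcripts, so related extensins may add to its signal.

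Of the hydroxyproline-rich glycoprotein genes, AT4G38080 had sorted signals of 11.9, 1.55 and 0.512, and whole-root signals of 4732 and 4819. The whole roots were close to each other, 1.02-fold apart, against a median of 1.14-fold over 13647 tested probe sets. The sorted samples were 23.3-fold apart, against a median of 1.32-fold, and all lay far below the bound. The log2 difference was -11.14 (SE 1.09), ranging from -13.20 to -8.63 over the 6 pairings. It was -12.39 without sorted replicate 1 and -10.12 without sorted replicate 3. The lowest whole root was 109-fold above the bound, and 396-fold above the brightest sorted sample.

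The second such gene, AT5G09480, had sorted signals of 20.2, 6.13 and 6.71, and whole-root signals of 2554 and 3063. Its means were 11.0 ± 7.93 (SD, n = 3) and 2808 ± 360 (SD, n = 2), and the log2 difference was -8.22 (SE 0.485), between -8.96 and -6.99 over the 6 pairings. The lowest whole root was 58.9-fold above the bound and 127-fold above the brightest sorted sample.

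**Figure D1:**
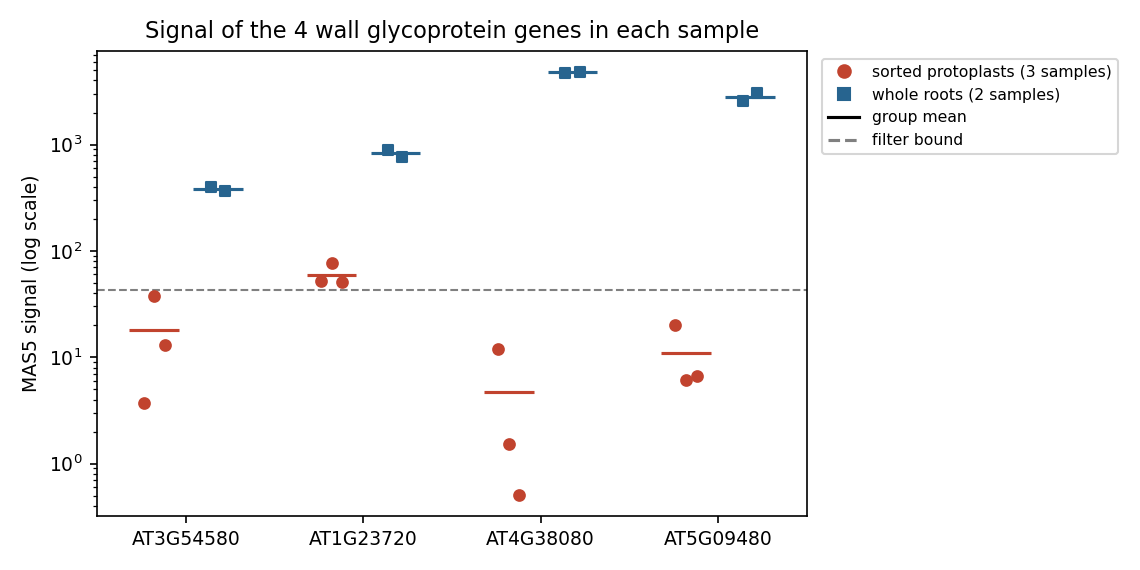
MAS5 signal (log axis) of the 4 genes in each sample: circles are the 3 sorted protoplast samples, squares the 2 whole roots, short lines the group means, and the dashed line the filter bound of 43.3. Every whole root lies above every sorted sample for each gene, and only AT1G23720 has its sorted samples above the bound.

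In all 4 genes both whole roots were above all 3 sorted samples, which was also the case for 33.1% of all tested probe sets. Nothing is read from that count, since this contrast chose the genes. The order of the sorted samples was not shared: sorted replicate 1 was the brightest for AT4G38080 and AT5G09480 and the dimmest for AT3G54580, and sorted replicate 2 was the brightest for both extensins. Of the 4 genes, AT3G54580, AT4G38080 and AT5G09480 reached the mean that the filter requires only through their whole-root signal.

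The extensin genes are long, 3347 bp for AT3G54580 and 3327 bp for AT1G23720 with introns, and the hydroxyproline-rich glycoprotein genes short, 969 bp for AT4G38080 and 840 bp for AT5G09480, by the RefSeq gene table (TAIR10.1). Each gene was set beside the tested probe sets of genes within 10% of its length. The median log2 difference of those was 0.48 for 977 probe sets near AT3G54580 and 0.48 for 987 near AT1G23720. It was -0.85 for 234 probe sets near AT4G38080 and -1.33 for 138 near AT5G09480. The part of length in the differences of the 4 genes was not tested.

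The differences kept their sign under each scaling and with each sample left out. With median centring they were -4.73 for AT3G54580, -3.57 for AT1G23720, -10.90 for AT4G38080 and -7.98 for AT5G09480, while the median over all tested probe sets moved from 0.15 to 0.39. With 32 added to each signal before taking log2, which damps dim values, they were -3.11, -3.23, -7.05 and -6.06 in the same order of genes. AT3G54580 and AT1G23720 thereby changed places.

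**Figure D2:**
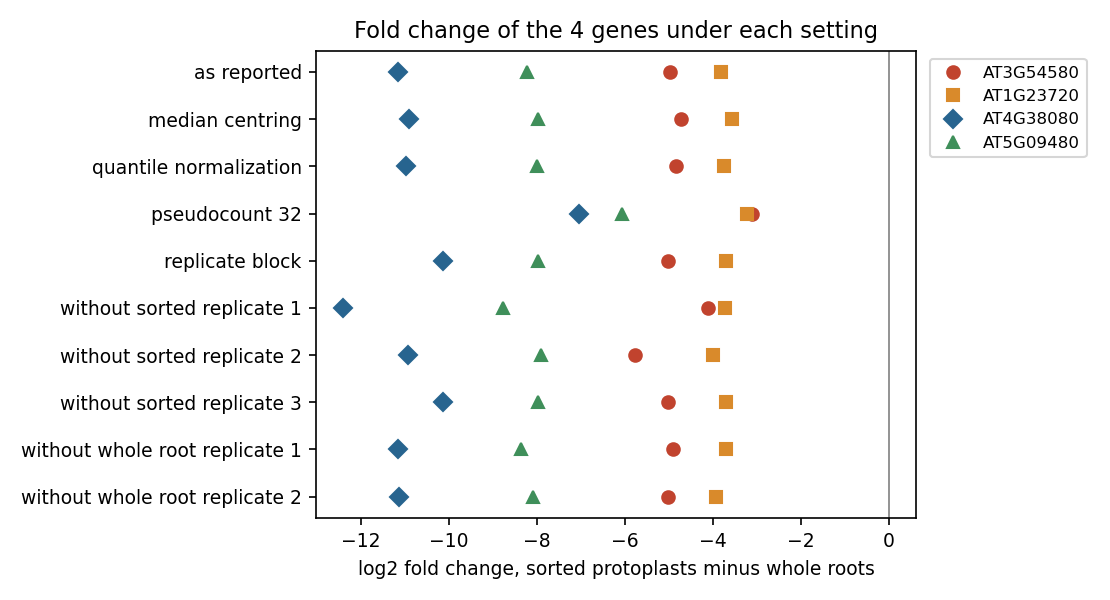
Log2 difference, sorted protoplasts minus whole roots, of each gene (markers) as reported and under other scalings, a pseudocount of 32, the replicate number as a block, and with each sample left out. All values lie below 0, and the pseudocount moves AT4G38080 most, from -11.14 to -7.05.

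Other extensins were followed on a list of 21 identifiers written from general knowledge of the family, of which 12 had a single-gene probe set, including AT3G54580 and AT1G23720. Of the other 10, HRGP1 (AT3G54590), listed by RefSeq as a hydroxyproline-rich glycoprotein, was the one bright enough on average for the limma fit, and it fell. Its signals were 86.0, 62.2 and 71.7 in sorted protoplasts and 519 and 528 in whole roots. The log2 fold change was -2.85 (SE 0.197, limma adjusted p = 2.7e-05), where 26.5% of all tested probe sets were called lower. Its probe set is of the _x_at kind too, as are 4 of the 12.

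The filter on the mean over all samples left out extensins that were bright in whole roots. AT1G26250 had sorted signals of 2.60, 1.68 and 5.47 and whole-root signals of 2026 and 1780. AT3G28550 had 12.4, 5.13 and 13.1 against 541 and 220. AT1G26240 had 4.48, 2.89 and 9.15 against 105 and 90.9. In each of these genes the groups stood apart, with every sorted signal under the bound and both whole roots above it. A fit with no filter therefore included all 10.

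In that fit 6 of the 10 other extensins fell, 0 rose and 4 did not pass. Over all 22746 probe sets, 19.7% were called lower and 20.9% higher. Of the 6, HRGP1, AT5G06630 and AT4G08410 have _x_at probe sets, to which related extensins may add signal. The 6 calls may therefore not be separate. The median log2 fold change of the 10 was -2.81, against -0.02 over all probe sets. AT1G26250 had -9.36 (SE 0.51, limma adjusted p = 1.58e-05), AT3G28550 -5.20 (limma adjusted p = 0.000241) and AT1G26240 -4.31 (limma adjusted p = 0.000894). These folds depend on sorted signals under the bound. Set against the bound in place of the sorted values, the whole-root means were 43.9-fold, 8.78-fold and 2.26-fold higher in the same order. With 32 added to each signal and no filter, the log2 fold changes were -5.78, -3.18 and -1.79. When probe sets were kept for the mean of their brighter group alone, 7 of 7 tested fell, beside 29.5% of the 14880 probe sets tested that way, but this filter admits genes for being bright in whole roots. The _x_at probe sets of AT5G06630 and AT4G08410 had -2.77 and -1.93. The AT4G08410 call was lost with no mean-variance trend (limma adjusted p = 0.0501), without sorted replicate 3 (0.0509) and without whole-root replicate 1 (0.164). These genes were named after their values were seen. AT2G43150, with whole roots at 63.7 and 57.0 and sorted samples at 13.4, 0.447 and 10.8, did not pass (limma adjusted p = 0.0523). AT4G08370, AT4G08380 and AT5G26080, which did not pass either, were under the bound in all 5 samples.

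**Figure D3:**
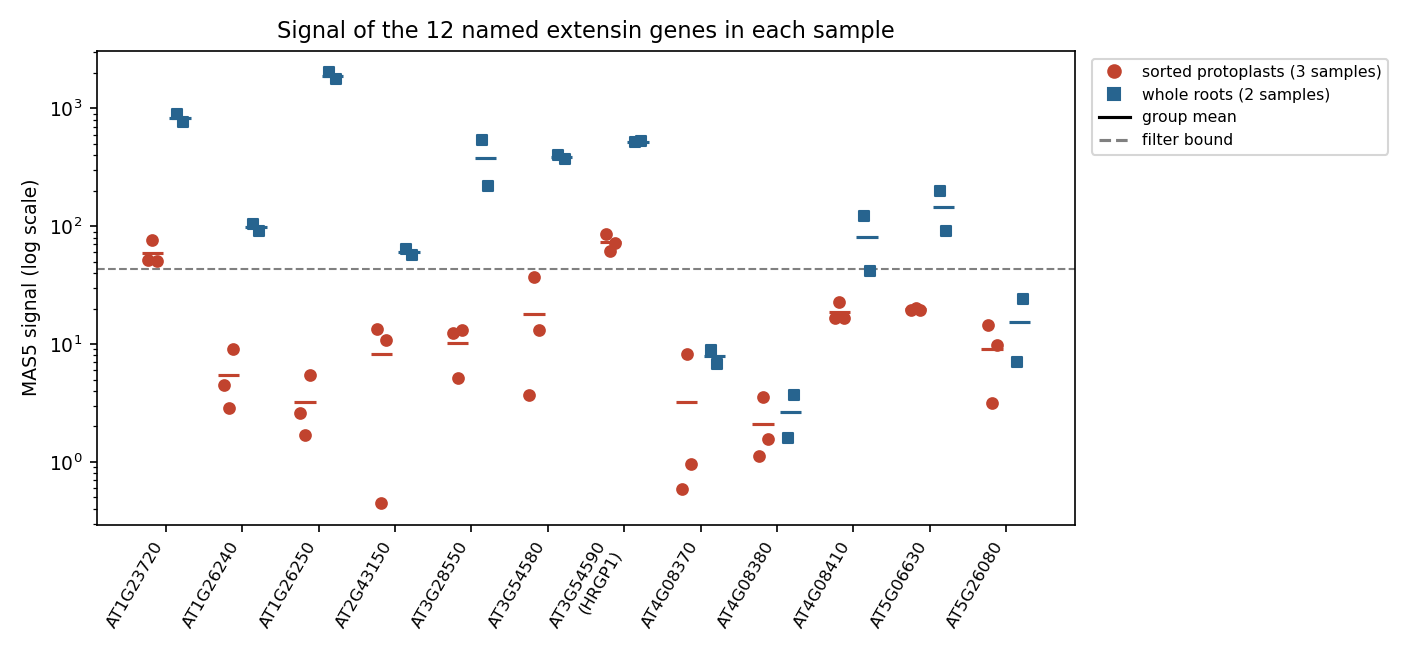
MAS5 signal (log axis) of the 12 named extensin genes in each sample, drawn as circles for the 3 sorted protoplast samples and squares for the 2 whole roots, with group means as short lines and the filter bound as a dashed line. AT1G26250, AT3G28550 and AT1G26240 are among the genes with both whole roots above the bound and all sorted samples below it. So is AT3G54580, which this contrast chose. AT4G08370, AT4G08380 and AT5G26080 are dim throughout.

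Leucine-rich repeat extensins join a receptor-like domain to an extensin domain and sit in the wall near the plasma membrane. Of 11 listed, 8 had a single-gene probe set and 2 were tested. Both fell, beside 26.5% of all tested probe sets, but both reached the mean that the filter requires only through their whole-root signal. AT3G22800 had signals of 12.3, 9.24 and 12.6 in sorted protoplasts and of 498 and 351 in whole roots (log2 fold change -5.21, SE 0.291, limma adjusted p = 1.27e-05). AT3G24480 differed less, with 43.4, 39.8 and 27.2 against 64.0 and 70.4 (-0.90, limma adjusted p = 0.0304). Its call was lost with median centring (0.0785), quantile normalization (0.117), no filter (0.0669), and without sorted replicate 3 (0.0872), whole-root replicate 1 (0.113) or whole-root replicate 2 (0.166). With no filter 2 of the 8 fell, AT3G22800 and AT4G18670 (-1.38, limma adjusted p = 0.0356), and 6 did not pass, where 19.7% of all probe sets were called lower. Of the 6, all but AT3G24480 were under the bound in all 5 samples: AT1G49490, AT2G15880, AT3G19020, AT4G33970 and AT5G25550. The AT4G18670 call was lost under quantile normalization (0.110) or median centring (0.0673), and on leaving out sorted replicate 2 (0.0512), sorted replicate 3 (0.0929), whole-root replicate 1 (0.211) or whole-root replicate 2 (0.0575).

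Of 14 listed prolyl 4-hydroxylases 9 had a single-gene probe set and 6 were tested. These enzymes hydroxylate the prolines to which sugars are attached. In sorted protoplasts 3 rose, 1 fell and 2 did not pass, beside 34.1% of all tested probe sets called higher and 26.5% called lower. The 2 were AT5G18900 (log2 fold change -0.12, limma adjusted p = 0.632) and AT3G28480 (-0.08, limma adjusted p = 0.719). AT1G68080 rose from 57.4 and 47.6 in whole roots to 142, 142 and 160 in sorted protoplasts (log2 fold change 1.499, SE 0.204, limma adjusted p = 0.000513). AT5G66060 rose by 0.77 (limma adjusted p = 0.00575). AT4G33910 rose by 0.62 (limma adjusted p = 0.0120), a call lost without sorted replicate 3 (0.0501) or whole-root replicate 2 (0.112). AT1G20270 fell, from 94.4 and 97.6 to 40.6, 46.8 and 48.4 (-1.09, SE 0.229, limma adjusted p = 0.00428).

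Of 9 listed glycosyltransferases, which add arabinose to hydroxyproline or galactose to serine of extensins, 4 were named and tested. In sorted protoplasts 2 rose and 2 did not pass, beside 34.1% of all tested probe sets called higher. With 4 genes, nothing is read from that count. XEG113, an arabinosyltransferase, rose from 356 and 346 in whole roots to 634, 581 and 637 in sorted protoplasts (log2 fold change 0.81, SE 0.141, limma adjusted p = 0.00166). AT3G57630 rose by 0.57 (limma adjusted p = 0.0266), a call lost without sorted replicate 2 (0.0761) or either whole root (0.0618 and 0.161). AT5G13500 (0.44, limma adjusted p = 0.0574) and AT3G01720 (-0.19, limma adjusted p = 0.242) did not pass. The median log2 fold change was 0.27 over the 6 tested hydroxylases and 0.50 over the 4 transferases, against 0.15 over all tested probe sets. With median centring these medians were 0.51, 0.74 and 0.39.

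**Figure D4:**
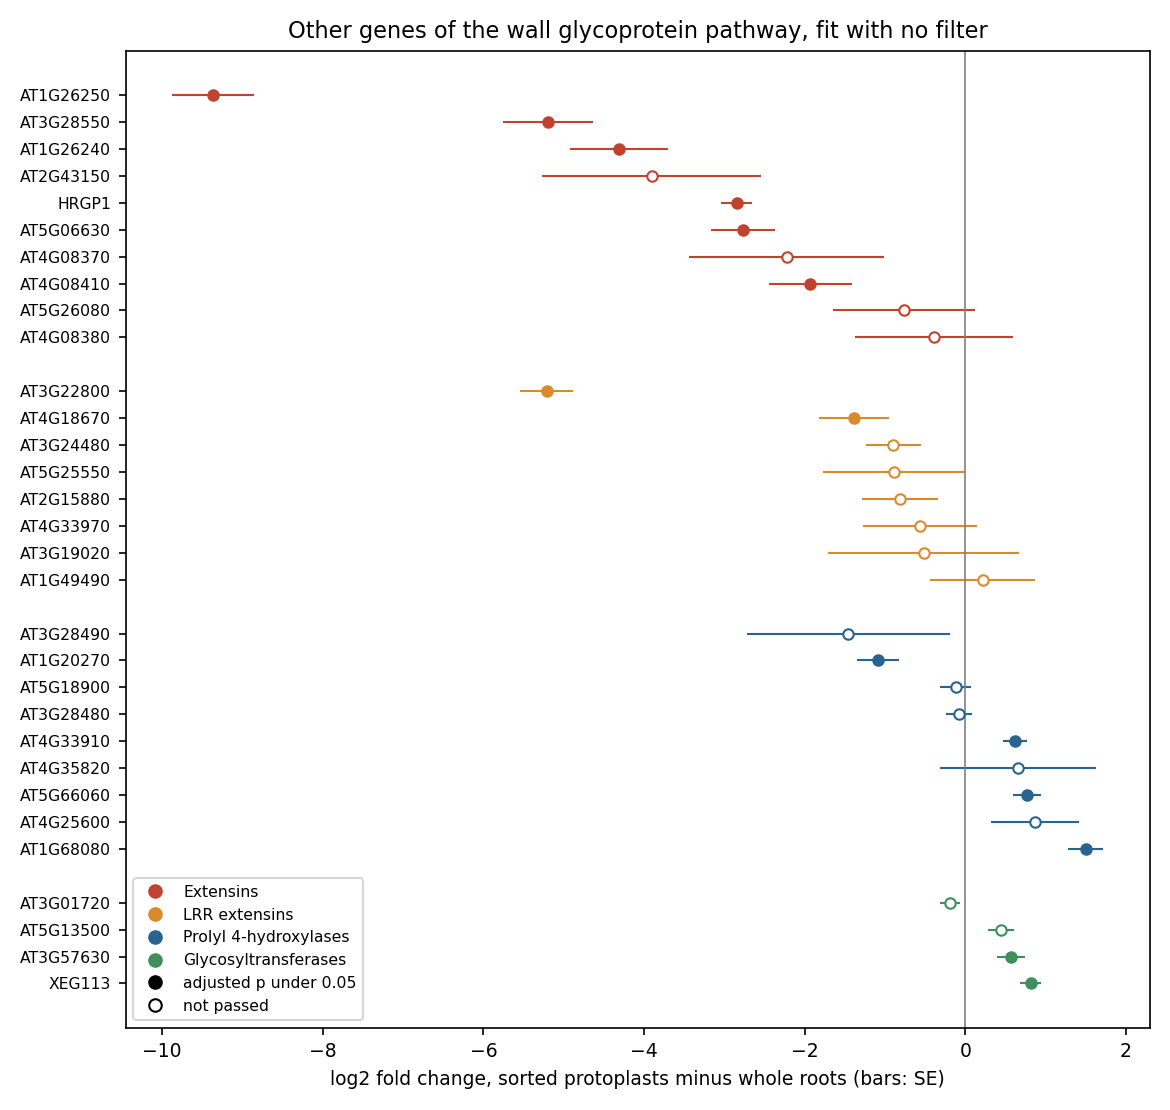
Log2 fold change with its SE, sorted protoplasts minus whole roots, of the other named genes on 4 lists, from the limma fit with no filter. Filled points had an adjusted p under 0.05. Extensins reach from -9.36 to -0.39, and the called hydroxylases and glycosyltransferases lie above 0 except AT1G20270.

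No arabinogalactan protein of 26 listed and no proline-rich protein of 6 listed had a single-gene probe set. RefSeq names of 88 genes held extensin, hydroxyproline-rich glycoprotein, arabinogalactan or proline-rich, and 3 of these had one: HRGP1, which fell as above, AT3G09000, called basic proline-rich protein, which rose by 0.83 (limma adjusted p = 0.00324), and AT5G01280, which was too dim to be tested.

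The 3 annotated protein-coding genes on each side of each of the 4 genes were examined as well. Of these 24 neighbours 15 had a single-gene probe set and 9 were tested: 1 rose and 3 fell, while 5 did not pass. Over all tested probe sets, 34.1% were called higher and 26.5% lower. Their median log2 fold change was 0.02, against 0.15 over all tested probe sets. HRGP1, the extensin next to AT3G54580, was one that fell, and the other called neighbours had smaller fold changes. AT4G38090, next to AT4G38080, fell from 259 and 332 to 169, 152 and 151 (-0.90, limma adjusted p = 0.00351). AT5G09510, near AT5G09480, fell by 1.91 on the log2 scale (limma adjusted p = 8.3e-05), from 980 and 819 to 206, 258 and 254. AT5G09450, on the other side, rose by 0.54 (limma adjusted p = 0.0269), a call lost in 4 of 5 fits that each left out 1 sample. Of the tested neighbours that did not pass, AT1G23710 was at 0.44, AT1G23740 at 0.10 and AT1G23750 at 0.025, all near AT1G23720. AT4G38100 was at 0.12 and AT5G09460 at -0.51.

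For each gene the 3 single-gene probe sets with the smallest Euclidean distance of log2 signal over the 5 samples were found. This distance counts the level of a probe set as well as its pattern, and 5 samples in 2 groups leave it ruled by the group difference. Nearest to AT3G54580 were AT4G31875 (distance 1.33), AT4G00895 (1.75) and AT4G32030 (1.88). Nearest to AT1G23720 were AT3G51330 (0.80), AT4G38550 (0.84) and the expansin gene EXPA4 (0.92), whose signals were 38.7, 58.8 and 75.5 in sorted protoplasts and 974 and 1031 in whole roots. The nearest to AT4G38080 lay farther off: AT3G58550 (3.74), AT4G23680 (3.76) and AT5G09480 (4.42). AT5G09480 had closer ones, AT2G18370 (0.95), AT2G23540 (1.28) and AT5G37690 (1.80). AT2G18370 gave 20.4, 11.5 and 6.88 in sorted protoplasts and 2162 and 2721 in whole roots.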

How the data were processed

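The authors deposited intensity values on a linear scale for each probe set. The tool was MAS5, per the submitters' processing notes. Detection calls and the software version are not given in the sources used here. Here they were taken to log2 and not normalized again. The 64 control probe sets and the 9099 probe sets with the lowest mean log2 value (40%) were left out, and 13647 were tested in limma 3.58.1 (R 4.3.3; lmFit, eBayes with trend). Group was the one factor in the fit, with a Benjamini-Hochberg adjusted p under 0.05 over all tested probe sets. Genes were named through the platform annotation and RefSeq. Coordinates are left out, since the probe sets come with no build. A gene with several probe sets was represented by the brightest. The members and lists were chosen with earlier results of these data known. Named genes were the 4 members, up to 4 called genes per list and direction, all tested neighbours and the 3 nearest probe sets. Some list genes that did not pass were named as well. The fit was tested on simulated data. Alternatives were no filter or one at 60%, a pseudocount of 32, quantile normalization, median centring, no trend, the replicate block, each sample left out, and every probe set counted. A filter on the brighter group, and no filter combined with the other choices, were added after seeing the data. The lists planned from protein sequence were not used here.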

Additional observations from a re-analysis of the deposited data

How the results depend on the processing

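With a pseudocount of 32 the log2 differences were -3.11 for AT3G54580, -3.23 for AT1G23720, -7.05 for AT4G38080 and -6.06 for AT5G09480. Leaving out 1 sample gave -5.78 to -4.11, -4.00 to -3.70, -12.39 to -10.12 and -8.77 to -7.91 in the same order. The replicate numbers gave no pairing (r of deviations 0.0057 and 0.0013 for numbers 1 and 2), and with the replicate block the differences were -5.02, -3.71, -10.12 and -7.97. Probe sets called lower went from 3623 to 2223 with the filter at 60%, where fewer are tested. Other extensins called lower went from 1 to 6 with no filter and to 7 of 7 tested with the filter on the brighter group, a filter that keeps genes for being bright in 1 group. With no filter this count was 5 to 8 with 1 sample left out. Leucine-rich repeat extensins called lower went from 2 to 1 with median centring, quantile normalization and the replicate block, to 0 with the filter at 60%, and were 1 to 2 with 1 sample left out. With no filter these counts were 1 with median centring, quantile normalization and the replicate block, and 1 to 3 with 1 sample left out. The hydroxylase called lower was not tested with the filter at 60% (0 lower). Glycosyltransferases called higher were 1 to 3 with 1 sample left out. The replicate block also ended the calls of AT3G24480 (adjusted p = 0.141), AT4G33910 (0.0594) and AT5G09450 (0.127) and, with no filter, those of AT4G08410 (0.0501) and AT4G18670 (0.139), and no other call of a named gene. Neighbours called higher were 0 with the replicate block and 0 to 3 with 1 sample left out. Of neighbours that did not pass, AT1G23740 ranged from -0.36 to 0.57 with 1 sample left out, reversed without whole-root replicate 1. AT1G23750 reversed to -0.044 with the replicate block and ranged from -0.14 to 0.26 with 1 sample left out, at -0.024 without whole-root replicate 2. AT4G38100 reversed to -0.10 with the replicate block and ranged from -0.10 to 0.55 with 1 sample left out. It was at -0.079 without sorted replicate 2 and -0.094 without whole-root replicate 1. Without sorted replicate 1, AT4G38100 (0.55, limma adjusted p = 0.0147) and AT1G23710 (0.66, limma adjusted p = 0.0301) were called higher. The causes of these changes were not tested where the number of probe sets or samples did not set them. Signals under the bound limit every fold of AT3G54580, AT4G38080 and AT5G09480. They also limit the folds of AT3G22800, of AT4G18670 and of the other extensins except HRGP1. In part they limit those of AT3G24480 (sorted signals of 39.8 and 27.2 under the bound) and AT1G20270 (40.6).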

Other observations

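The mean filter left out 9099 probe sets, and 739 of these had both whole roots above the bound of 43.3 and all 3 sorted samples below it, against 131 the other way round. Because the mean is taken over 3 sorted and 2 whole-root samples, a gene bright in sorted samples passes this filter more easily than one bright in whole roots, so the 2 counts are unequal in part by construction. A whole-root mean over 300 was reached by 50 of the 739, among them the extensin AT1G26250 (whole-root mean 1903, sorted mean 3.25), and a sorted mean over 300 by 1 of the 131.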
